A study of Mus musculus with 12 samples.

Results

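T+ cells are cells that switched on a reporter for T (Brachyury), a T-box transcription factor that marks the primitive streak and the mesoderm leaving it, and were sorted by it after differentiation of mouse embryonic stem cells. They were compared here, across all genes, with the undifferentiated stem cells (mESC) they came from. The comparison rests on 6 of the 12 RNA-seq libraries of the study, 3 of T+ and 3 of mESC, chosen by their labels and not by any measured value. Of 54446 genes in the table, 16097 were tested. The other 6 libraries hold 3 of cells sorted as SOX17+/T+ (double-positive) and 3 of cells sorted as SOX17+, an endoderm factor, and they enter only where named.

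Every library came from E14, an established mouse embryonic stem cell line. Per the labels, the stem cells grew on gelatin with irradiated primary mouse embryonic fibroblasts as feeders, in medium with fetal bovine serum and LIF, the cytokine that sustains self-renewal. Cells of every group were taken up with TrypLE, a dissociation enzyme, and the differentiated populations were then sorted by reporter expression. A sort is not mentioned for the mESC, and neither is removal of the feeders. The differentiation medium, its duration, the reporter alleles and the number of clones are nowhere stated in the labels. Whether the 3 libraries of each group came from separate cultures is not said, so p-values measure only the spread between these libraries, which may be technical. They were bulk libraries, in which fewer cells of a type and less RNA per cell cannot be told apart.

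Stem cells held in serum and LIF keep a naive pluripotency network that depends on JAK-STAT signalling, divide with a short gap before replication and express factors that restrain retroelements. Cells that pass through the primitive streak shut that network down, loosen their epithelial contacts, move through a matrix rich in glycosaminoglycans and respond to secreted guidance and growth factors. Growth machinery, energy metabolism and chromatin regulators are remodelled along this path.

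The labels were first checked on T and on marker lists. T, the gene of the sort, was listed at 0.65, 0.618 and 0.673 TPM for mESC and 132, 92.1 and 158 TPM for T+, so the groups did not overlap. Of 37 streak and mesoderm genes, 34 were higher in T+, and the 32 pluripotency genes were all lower, with Pou5f1 (OCT4) going from 1367 to 92 TPM. Of these 32, 31 were called lower after median-of-ratios scaling, and 31 lower and 1 higher after quantile normalization. Levels are TPM (transcripts of a gene, corrected for its length, per fixed total of transcripts) as deposited by the authors, and a fold change is the T+ minus mESC difference of log2(TPM + 1) ± its standard error in a limma fit to all 12 libraries, a scale that understates the change of genes near 1 TPM. A gene "rose" or "fell" when its Benjamini-Hochberg adjusted limma p was under 0.05 over all 16097 genes.

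Most genes were called: 5547 rose (34.5%) and 7973 fell (49.5%). Libraries of a group correlated across genes at r of 0.996 in T+ and of 0.995 to 0.997 in mESC, against 0.832 to 0.835 between the groups. With so many calls a size limit was needed, and a change of at least 2-fold was reached by 1668 rises (10.4%) and 3251 falls (20.2%), 30.6% of the tested genes in all. These shares are the background against which each gene family below has to be read. The median change over all tested genes was -0.17, and it was -0.04 after median-of-ratios scaling and 0.07 after quantile normalization, while the share of calls that were rises went from 41% to 47.6% and 53.4%. Small shifts of a whole family therefore depend on the scaling, and families whose median turns sign with it are named as such.

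**Figure D1:**
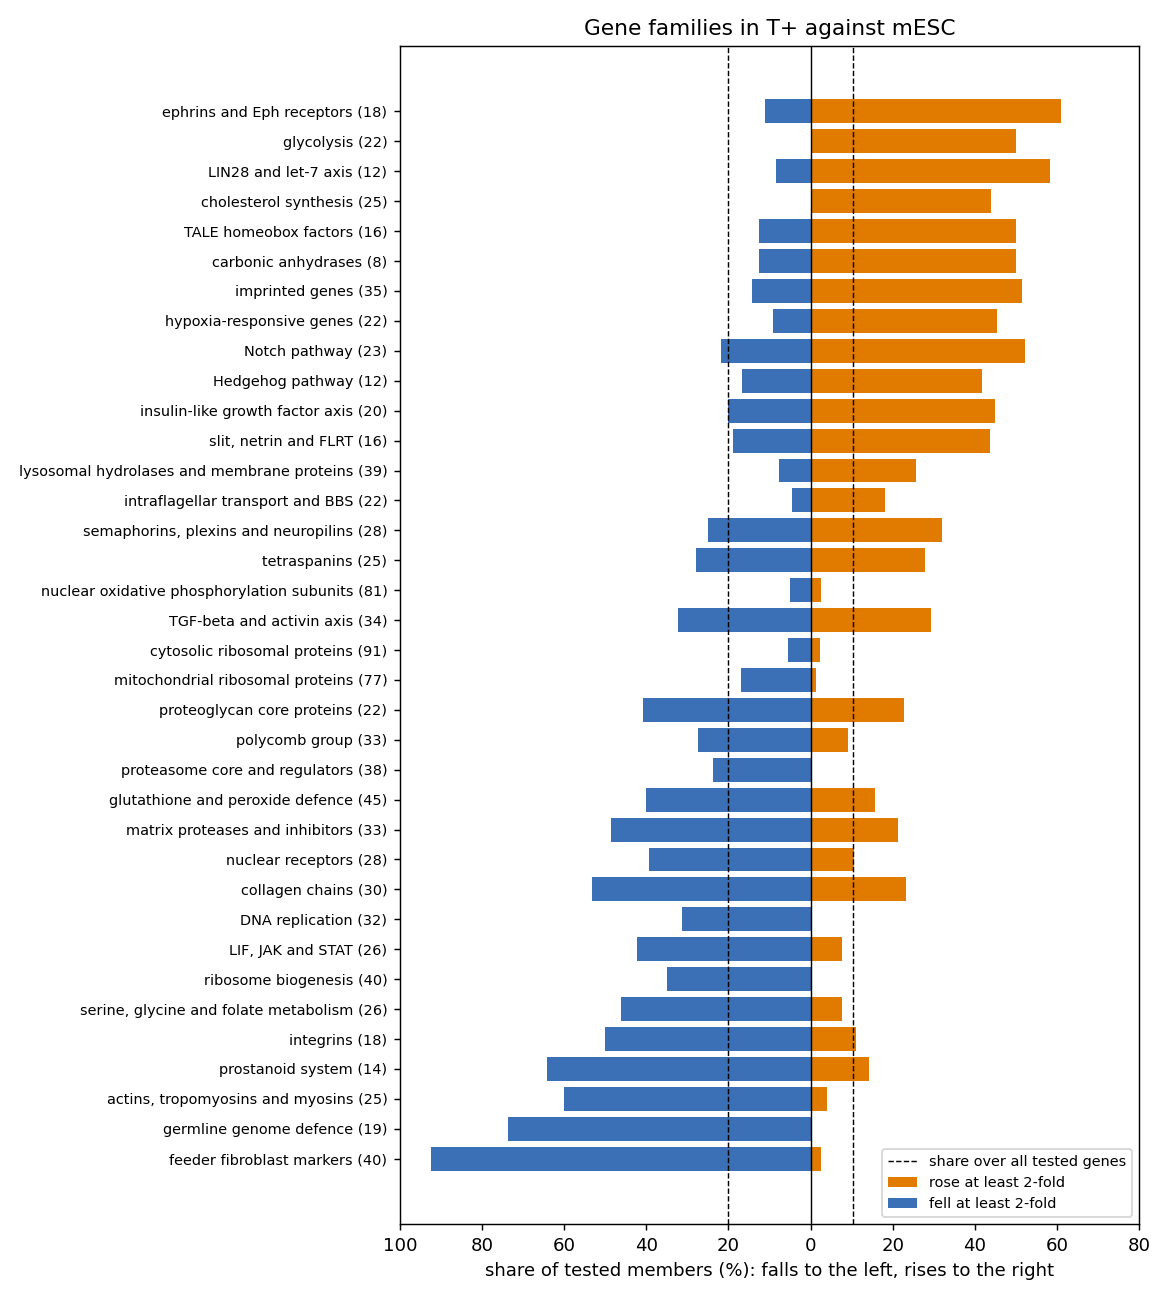
Share of the tested members of 36 gene families that rose (right, orange) or fell (left, blue) by at least 2-fold in T+ against mESC, in percent of the tested members given in brackets. Dashed lines mark the same shares over all 16097 tested genes, 10.4% for rises and 20.2% for falls.

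The largest rises outside the marker lists joined secreted, membrane and metabolic genes. Ptgds (ENSMUSG00000015090.13, chromosome 2, 25466709 to 25470046 in GRCm38), the prostaglandin D synthase and lipid carrier, was listed at 1.95, 0.986 and 1.45 TPM for mESC and 252, 265 and 238 TPM for T+. That is a rise of 6.70 ± 0.13 with no overlap between the groups. Mogat2, which makes diacylglycerol, rose from 1.26 to 152 TPM (6.08 ± 0.07). Unc5c (ENSMUSG00000059921.15, chromosome 3, 141465216 to 141834924), a netrin receptor, was listed at 0.391, 0.566 and 0.639 TPM for mESC and 80.6, 87.2 and 79.2 TPM for T+ and rose by 5.77 ± 0.08. Car14, a membrane carbonic anhydrase, went from 0.617 to 74.6 TPM. Crb2, an apical polarity protein required for gastrulation, went from 0.455 to 72.7 TPM. Gpc3 (ENSMUSG00000055653.13, chromosome X, 52272426 to 52613950), a cell-surface heparan sulfate proteoglycan, reached 1177, 1183 and 1165 TPM in T+ from 27.9, 26.6 and 27.5 TPM in mESC. The rise of Gpc3 was 5.38 ± 0.03, and no other of the 12 largest rises had a higher T+ level. Dkk1, a secreted WNT inhibitor, went from 0.566 to 60.9 TPM, Cox4i2, an alternative cytochrome oxidase subunit, from 0.97 to 68.7 TPM, and Prtg, an immunoglobulin-domain receptor of early mesoderm and neural tissue, from 9.05 to 315 TPM. Capn6, an inactive calpain relative, went from 0.467 to 62.9 TPM, and Prdm6, a PR-domain repressor, from 0.167 to 37.8 TPM. The adjusted limma p of the 12 largest rises was at most 2.1e-12.

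Against the other sorted cells, these rises differed in reach. These comparisons and the one with mESC share the T+ libraries. Car14 differed little between populations, at 74.6 TPM in T+, 78.2 TPM in SOX17+/T+ and 64.8 TPM in SOX17+, whereas Ptgds stood at 251 TPM in T+, 86.3 TPM in SOX17+/T+ and 3.34 TPM in SOX17+. Unc5c was also highest in T+, with 55.1 TPM in SOX17+/T+ and 24.8 TPM in SOX17+. The difference of T+ from SOX17+ was 5.87 ± 0.13 for Ptgds (adjusted limma p 1e-11), 1.69 ± 0.08 for Unc5c (1.3e-09) and 0.20 ± 0.06 for Car14 (0.0188). Gpc3 was high in all the differentiated cells, at 876 TPM in SOX17+/T+ and 868 TPM in SOX17+.

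**Figure D2:**
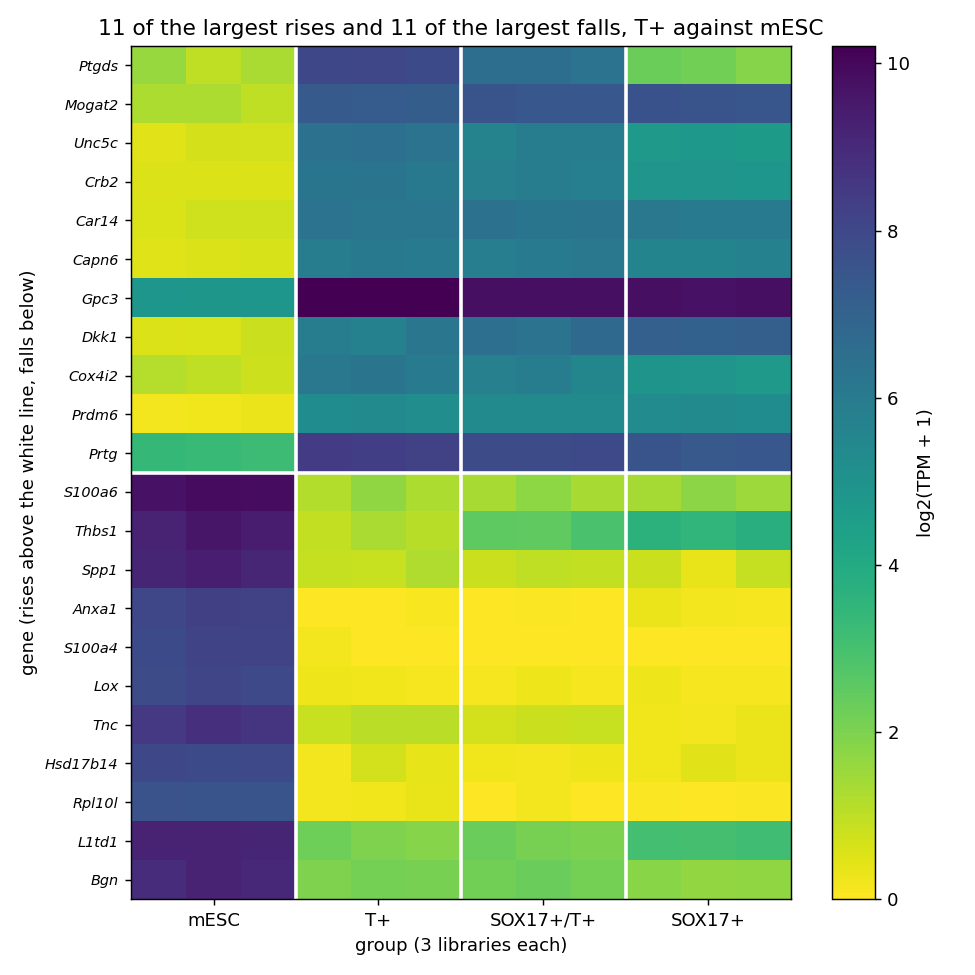
log2(TPM + 1) of 11 of the 12 largest rises and 11 of the 12 largest falls of T+ against mESC in each of the 12 libraries, one row per gene and 3 columns per group, darker for higher values. The falls are low in T+ and in the other sorted libraries, while the rises differ in how far SOX17+ libraries share them.

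The largest falls were led by genes that fibroblasts express strongly. S100a6 (ENSMUSG00000001025.8, chromosome 3, 90612882 to 90624181), a calcium-binding protein, was listed at 844, 962 and 934 TPM for mESC and 1.24, 2.22 and 1.38 TPM for T+, a change of -8.47 ± 0.15. Thbs1 (thrombospondin, a matrix glycoprotein) went from 691 to 1.16 TPM, Anxa1 (an annexin) from 287 to 0.0192 TPM, S100a4 from 265 to 0.0428 TPM, Lox (which crosslinks collagen) from 247 to 0.155 TPM, Tnc (tenascin) from 411 to 0.991 TPM and Bgn (biglycan) from 535 to 3.2 TPM. Spp1 (osteopontin) went from 593 to 1.01 TPM. Others of the 12 belong to genes known from embryonic stem cells or germ cells: L1td1, an RNA-binding protein derived from a retrotransposon, fell from 579 to 3.11 TPM, and Rpl10l, a retrogene copy of a ribosomal protein, from 188 to 0.188 TPM. Hsd17b14, a short-chain dehydrogenase, fell from 250.1 to 0.34 TPM. The adjusted limma p of the 12 falls was at most 5.1e-14.

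The feeder question touches these falls directly. Of 41 fibroblast markers, 40 were tested, 39 fell (37 by at least 2-fold) and 1 rose, with a median of -4.17. Their summed level was 6137, 7552 and 7031 TPM in the mESC libraries, 0.691% of all TPM on average, against 385, 420.2 and 383 TPM in T+. Among the highest in mESC were Acta2 (smooth-muscle actin, 1006 TPM), Tagln (722 TPM), Thbs1, Timp1 (414 TPM) and Tnc. In T+, Ccl2, Fap, Lum and Mmp3 were listed at 0 in every library and 17 of the 41 markers averaged under 1 TPM. The highest in T+ were Mmp2 (121 TPM, the marker that rose), Loxl2 (40.5 TPM), Col1a1 (34.6 TPM), Cyr61 (26.5 TPM), Acta2 (24.1 TPM) and Col5a1 (17.7 TPM). Of the 3251 falls of at least 2-fold, 1328 had a T+ mean under 1 TPM and 978 kept 10 TPM or more. The part of feeder RNA in any single fall was not tested, and for a gene that fibroblasts and stem cells both express it cannot be told apart from a change in the stem cells.

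**Figure D3:**
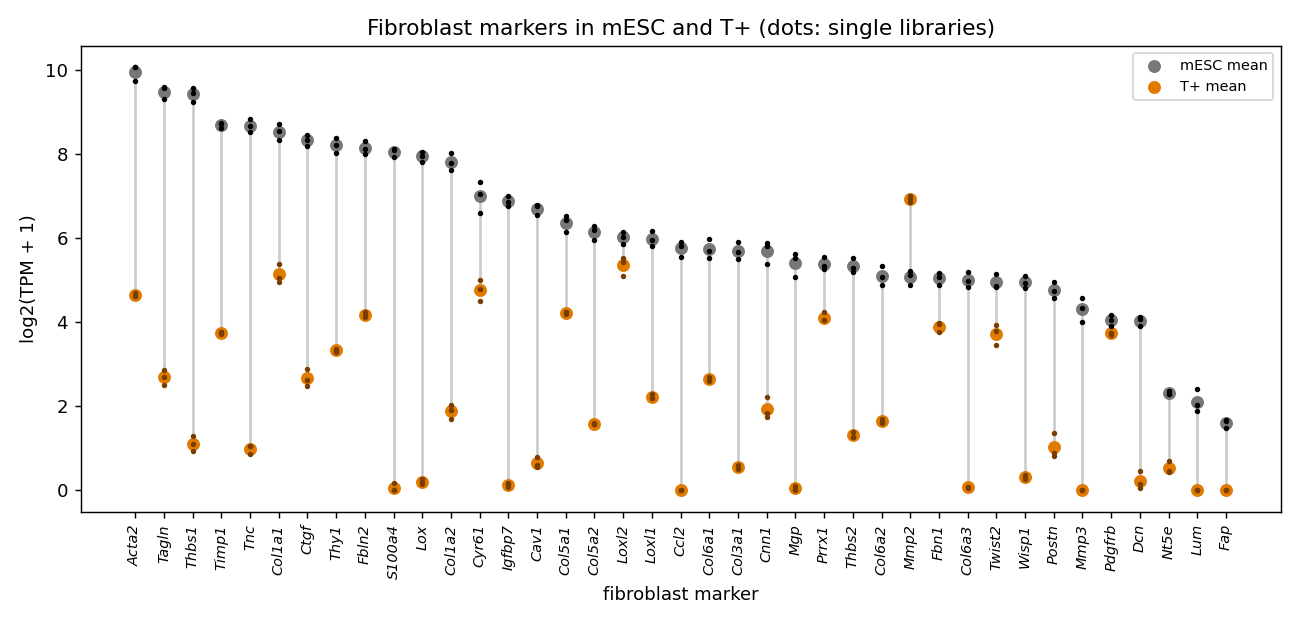
Mean log2(TPM + 1) of 39 of the 40 tested fibroblast markers in mESC (grey circles) and T+ (orange circles), joined by a line per gene and ordered by the mESC mean, with small dots for single libraries. In 38 of these 39 the T+ circle lies below the mESC circle, and Mmp2 is the exception.

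Markers of other cell types were low in both groups, with exceptions. Of 10 macrophage markers, 6 were tested, 1 rose and 5 fell. Lyz2 went from 15.4 to 0.0315 TPM and C1qa was listed at 5.18 TPM in mESC and 0 in T+, whereas Cd68, a lysosomal protein of many cells, went from 20.4 to 30.8 TPM. Stmn2, a neuronal tubulin regulator, fell from 199 to 7.8 TPM. Of 9 tested endothelial markers, 3 rose and 4 fell, with a median of 0.09, and Pecam1, also an adhesion protein of naive stem cells, fell from 30.3 to 2.41 TPM. Zscan4c, Zscan4d and Zscan4f, near-identical genes of a rare early-embryo-like state of stem cell cultures, averaged 20.2, 12.3 and 25.8 TPM in mESC and were listed at 0 in all T+ libraries. In all, 30 genes were listed at 0 throughout T+ and at 10 TPM or more in mESC, and 0 the reverse. They include the chemokines Ccl2 (53.7 TPM) and Ccl7 (35.6 TPM), the proteases Mmp3 and Mmp10 (15.4 TPM), the interleukin-33 receptor Il1rl1 (32.8 TPM) and the stem cell genes Dppa5b (18.2 TPM) and Dppa5c (18.1 TPM). The levels of Dppa5b, Dppa5c and the Zscan4 genes are uncertain, since reads can be split among such copies. An exact 0 in such a table can be a failed estimate, so no fold is given for them.

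Matrix genes changed in both directions. Of 30 collagen chains, 7 rose and 16 fell by at least 2-fold (23.3% and 53.3%, against 10.4% and 20.2% of all tested genes). However, 8 of the chains are also fibroblast markers, and without them 7 rose and 8 fell of 22. Among the falls, Col1a2 went from 227 to 2.72 TPM, Col3a1 from 51.4 to 0.463 TPM, Col12a1 from 39.5 to 0.0957 TPM and Col6a3 from 31.4 to 0.0492 TPM. Col9a1, a cartilage-type chain, was listed at 0, 0.0292 and 0 TPM for mESC and 23, 27 and 18.9 TPM for T+ and rose by 4.56 ± 0.12. Col26a1 went from 0.549 to 31.7 TPM, Col4a6, a basement membrane chain, from 0.104 to 7.66 TPM and Col2a1 from 4.25 to 11.1 TPM. Of 33 matrix proteases and their inhibitors, 7 rose and 16 fell by at least 2-fold (21.2% and 48.5% of the list). The inhibitors Timp1 (414 to 12.5 TPM) and Timp2 (165 to 9 TPM) fell together, while Mmp2 rose from 33 to 121 TPM, Mmp15, a membrane protease, from 4.14 to 32.8 TPM and Adamts17 from 0.389 to 11.7 TPM. Of 18 integrins, 2 rose and 9 fell by at least 2-fold (11.1% and 50% of the list). Itga3 fell from 43.3 to 2.77 TPM and Itga5, the fibronectin receptor chain, from 107 to 33.9 TPM, whereas Itgb5 rose from 57.9 to 132 TPM and Itgb8, which activates latent TGF-beta, from 0.0785 to 5.84 TPM. A part of feeder RNA in the falls of Timp1, Timp2, Itga3 and Itga5 was not tested.

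Proteoglycans changed member by member. Of 22 core proteins, 5 rose and 9 fell by at least 2-fold (22.7% and 40.9%, against 10.4% and 20.2% of all tested genes). Glypicans, lipid-anchored carriers of heparan sulfate that bind growth factors, moved apart. Gpc3 rose as above, Gpc6 from 4.61 to 83.2 TPM and Gpc1 from 28.8 to 60.7 TPM, while Gpc4, a glypican of naive stem cells, was listed at 88.9, 98.5 and 97.8 TPM for mESC and 5.97, 6.22 and 5.93 TPM for T+ and changed by -3.77 ± 0.08. Biglycan and decorin (Dcn, 15.5 to 0.175 TPM), both secreted by fibroblasts, fell. Enzymes that modify heparan sulfate changed in the same uneven way, with Hs3st3b1, a 3-O-sulfotransferase, going from 2.42 to 25.8 TPM and Hs6st1, a 6-O-sulfotransferase, from 41.6 to 12.5 TPM. In the hyaluronan system the synthase Has2 rose from 19.9 to 57.4 TPM and the binding proteoglycan Vcan (versican) from 20.4 to 52 TPM, whereas the receptor Cd44 fell from 163 to 15.5 TPM. Whether feeder RNA had a part in the falls of Cd44, biglycan and decorin was not tested. Cell-contact families split likewise. Of 25 tetraspanins, membrane organisers, 7 rose and 7 fell by at least 2-fold: Tspan6 went from 19.3 to 109.9 TPM and Tspan7 from 9.59 to 67.6 TPM, Cd9 from 228 to 28.5 TPM and Cd37 from 18.5 to 0.541 TPM. Of 8 connexins, 5 fell by at least 2-fold and 1 rose at any size, Gja1, from 98.3 to 153 TPM.

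Guidance molecules included many rises. Of 18 ephrins and Eph receptors, which signal between touching cells, 15 rose and 3 fell, 11 and 2 by at least 2-fold, with a median of 1.36. Rises of at least 2-fold were 61.1% of the list, against 10.4% of all tested genes. Efnb3 was listed at 1.72, 1.5 and 1.63 TPM for mESC and 60.2, 64.2 and 62.1 TPM for T+, Efna1 at 1.47, 1.45 and 1.28 TPM for mESC and 41.3, 46.1 and 39.2 TPM for T+. Both ligands were low in every mESC library and did not overlap with their T+ levels. Epha2, a receptor of Efna1, went the other way, from 92 to 8.35 TPM (-3.32 ± 0.09), and Ephb4 rose from 18.7 to 54.4 TPM. Of 28 semaphorins, plexins and neuropilins, 9 rose and 7 fell by at least 2-fold (32.1% and 25%, against 10.4% and 20.2% of all tested genes). Receptors such as Plxna2 (1.45 to 16.5 TPM), Plxnd1 (1.52 to 13.6 TPM) and Nrp1 (22.1 to 67 TPM) were among the rises. The class 4 ligands Sema4a (6.25 to 1.33 TPM), Sema4b (35.9 to 10.9 TPM) and Sema4d (19 to 5.55 TPM) were among the falls. Sema4c, of the same class, rose from 3.16 to 26.2 TPM. Of 16 slit, netrin and FLRT genes, 7 rose and 3 fell by at least 2-fold. Besides Unc5c, the receptors Unc5b (26.7 to 83.3 TPM), Neo1 (22.4 to 52.5 TPM) and Robo2 (0.32 to 7.27 TPM) rose with the ligand Slit2 (7.23 to 18.4 TPM), while the ligand Ntn1 fell from 16.9 to 5.94 TPM and Flrt2 from 39 to 2.32 TPM. A part of feeder RNA in falls such as those of Epha2 and Flrt2 was not tested.

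Notch signalling, by which neighbouring cells set each other's fate, moved in many of its genes. Of 23 tested, 12 rose (52.2%, against 10.4% of all tested genes) and 5 fell by at least 2-fold, and the median was 1.31. Dll3, a ligand-like inhibitor, was listed at 4.05, 3.53 and 3.22 TPM for mESC and 92.1, 75 and 97.3 TPM for T+ and rose by 4.27 ± 0.11. Dlk1, a non-canonical ligand, went from 16.6 to 86.4 TPM. The target genes Hey1 (4.68 to 29.1 TPM), Hey2 (0.881 to 12.1 TPM) and Nrarp (2.96 to 25.9 TPM) rose with the coactivator Maml3 (0.189 to 10.1 TPM), but Rbpj, the DNA-binding factor of the pathway, fell from 205 to 41.6 TPM and Hes1 did not pass (78.5 ± 7.39 TPM in mESC and 75 ± 9.86 TPM in T+, adjusted limma p 0.682, with overlapping libraries and a sign that turned under either rescaling). Jag2 and the glycosyltransferase Mfng fell, from 7.94 to 2.83 TPM and from 5.27 to 0.65 TPM. Of the 23 genes, 14 were higher and 5 lower in T+ than in SOX17+, against 29% and 25.4% of all tested genes.

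In the Hedgehog pathway, a secreted signal of midline tissues, 9 of 12 genes rose and 3 fell. By at least 2-fold, 5 rose and 2 fell (41.7% and 16.7%, against 10.4% and 20.2% of all tested genes). The ligand Shh went from 0.0315 to 20.4 TPM, the signal transducer Smo from 28 to 101 TPM, the receptor and target Ptch1 from 56.5 to 119 TPM and the co-receptor Gas1 from 4.59 to 15.3 TPM. The mediators diverged, with Gli3 rising from 7.18 to 24.8 TPM and Gli2 falling from 36.1 to 9.64 TPM. The insulin-like growth factor axis rose at the level of ligand, receptors and a binding protein. There were 9 rises and 4 falls of at least 2-fold among 20 genes (45% and 20% of the list). Igf2 (insulin-like growth factor 2) was listed at 23.3, 26.2 and 26 TPM for mESC and 697, 770.1 and 780.1 TPM for T+ and rose by 4.84 ± 0.05. Igf1r, the signalling receptor, went from 9.96 to 40.2 TPM, Igf2r, which clears the ligand, from 29.3 to 135 TPM, and Grb10, an inhibitory adaptor, from 91.4 to 325 TPM. Igfbp4 was listed at 6.47, 7.32 and 6.23 TPM for mESC and 176, 183 and 184 TPM for T+. Igfbp7, also a fibroblast marker here, fell from 118 to 0.0951 TPM, Igfbp6 from 6.77 to 0.154 TPM and Igfbp2, the most abundant binding protein in both groups, from 293 to 221 TPM. The fall of Igfbp2 did not pass after quantile normalization (adjusted limma p 0.241). Igf2 was lower in T+ than in SOX17+ (-1.01 ± 0.05) and Igfbp4 was higher (1.63 ± 0.06).

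Of 26 LIF, JAK and STAT genes, 17 fell and 7 rose. By at least 2-fold, 11 fell and 2 rose (42.3% and 7.69%, against 20.2% and 10.4% of all tested genes). Stat3, the effector of LIF, fell from 56.5 to 13.3 TPM, its feedback inhibitor Socs3 from 85.9 to 5.27 TPM and its targets Pim1 from 127 to 10.1 TPM and Pim3 from 131 to 37.4 TPM. Osmr, a receptor subunit that fibroblasts express, went from 13.4 to 0.00971 TPM. Stat5b rose from 3.78 to 12.5 TPM. ERK feedback genes fell in part: Spry4 from 84.6 to 3.54 TPM, Dusp14 from 16.4 to 1.35 TPM and Dusp1 from 49.7 to 9.26 TPM, with Dusp4 rising from 27.5 to 64.9 TPM. The ERK-responsive ETS factors Etv4 (132 to 16.3 TPM) and Etv5 (189 to 36.6 TPM) fell too, although the median of the 21 ETS factors was -0.11 and turned to 0.02 under both quantile normalization and median-of-ratios scaling. In the EGF family 8 of 11 genes fell by at least 2-fold (72.7%, against 20.2% of all tested genes). Egfr (7.01 to 0.377 TPM) and Hbegf (39.4 to 15.5 TPM) were among them, and Erbb2 rose from 6.26 to 27.2 TPM. Whether feeder RNA had a part in the falls of Osmr, Egfr and Hbegf was not tested.

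Transforming growth factor genes exchanged members. Of 34 genes, 10 rose and 11 fell by at least 2-fold (29.4% and 32.4%, against 10.4% and 20.2% of all tested genes). The ligand Tgfb2 was listed at 3.67, 5.2 and 5.24 TPM for mESC and 85, 94.1 and 75.2 TPM for T+ and Tgfb1 rose from 34.8 to 122 TPM, while Tgfb3 fell from 20.8 to 0.429 TPM and the activin subunits Inhba and Inhbb from 67.7 to 0.0343 TPM and from 40.1 to 0.0192 TPM. Smad6, an inhibitory SMAD, rose from 10.3 to 42.3 TPM and Smad9 from 0.277 to 6.62 TPM. Latency proteins fell, Ltbp2 from 48.8 to 0.0107 TPM and Ltbp3 from 15.5 to 0.909 TPM. Prostanoid enzymes, which make prostaglandins from arachidonic acid, changed in opposite directions. The cyclooxygenases Ptgs2 (45.1, 53.5 and 47.2 TPM for mESC and 0.298, 0.273 and 0.245 TPM for T+) and Ptgs1 (9.44 to 2.73 TPM), the phospholipase Pla2g4a (17 to 1.3 TPM) and the prostaglandin E synthase Ptges (20.3 to 3.3 TPM) fell, whereas Ptgds and the prostacyclin synthase Ptgis (18 to 39.9 TPM) rose. In all 2 of 14 prostanoid genes rose and 9 fell by at least 2-fold (14.3% and 64.3% of the list). In the Hippo pathway the YAP targets Ctgf (322 to 5.4 TPM), Cyr61 (129.9 to 26.5 TPM) and Ankrd1 (14.6 to 0.00524 TPM) fell, the first 2 of them fibroblast markers, while Yap1 itself was listed at 117 ± 1.52 TPM in mESC and 121 ± 0.711 TPM in T+ (adjusted limma p 0.303, or 0.000528 and higher in T+ after median-of-ratios scaling). Amot, a YAP-binding scaffold, rose from 6.98 to 124 TPM, Vgll4 from 14.9 to 89.2 TPM and Tead2 from 107 to 269.9 TPM. Fibroblasts are known to express Inhba, Ltbp2, Tgfb3, Ptgs2, Ctgf and Ankrd1, and the part of the fibroblast marker sum in these falls was not tested.

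Transcription factor families changed in both directions. Some of their members, among them Esrrb, Nr5a2 and Klf2, are also in the pluripotency list checked above, so these falls partly repeat that check. Of 28 nuclear receptors, 3 rose and 11 fell by at least 2-fold (10.7% and 39.3%, against 10.4% and 20.2% of all tested genes). Esrrb fell from 319.8 to 0.629 TPM, Nr5a2 from 44.2 to 0.267 TPM and Nr4a1, an immediate-early receptor, from 124 to 10.5 TPM. Thra rose from 11.7 to 31.3 TPM. Among KLF and SP factors, 8 of 23 fell and 3 rose by at least 2-fold (34.8% and 13% of the list). Klf2 fell from 338 to 0.401 TPM and Klf9 from 74.7 to 14.6 TPM. The 3 rises were Sp5 from 5.16 to 40.7 TPM, Sp8 from 0.941 to 8.22 TPM and Sp6 from 2.23 to 6.74 TPM. Of 16 TALE homeobox factors, cofactors of HOX proteins, 10 rose and 5 fell, 8 and 2 by at least 2-fold, with rises of Meis2 from 5.85 to 38.8 TPM and Meis3 from 6.04 to 26.5 TPM. Of these 16 genes, 10 were higher and 0 lower in T+ than in SOX17+/T+, where 15.8% and 12.6% of all tested genes were called (by limma; at an unadjusted p under 0.05, 0 of the 16 were lower). Inhibitors of differentiation, which block basic helix-loop-helix factors, rose, Id2 from 27.7 to 170.3 TPM and Id1 from 75 to 208 TPM. MYC genes fell: Mycn from 157 to 48.9 TPM and Myc from 82.4 to 34 TPM.

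**Figure D4:**
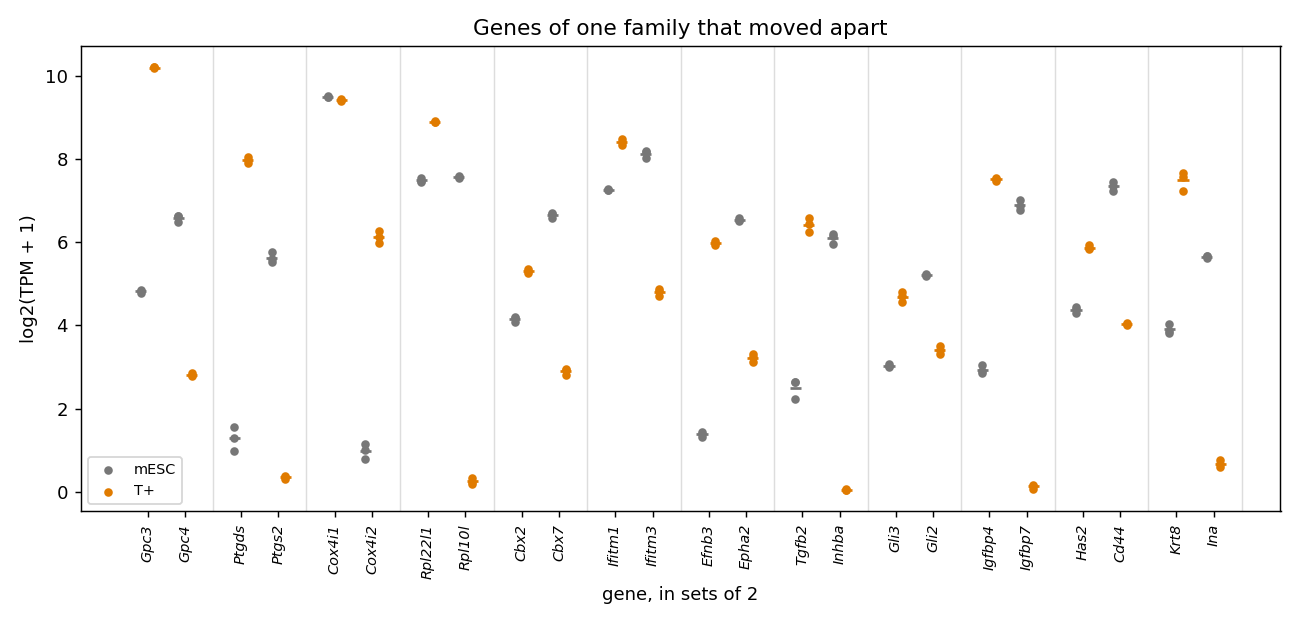
log2(TPM + 1) of 24 genes in 12 pairs, each from one family or pathway, in each of the 3 mESC libraries (grey) and the 3 T+ libraries (orange), with a bar at each group mean. The pairs, such as Gpc3 and Gpc4 or Ptgds and Ptgs2, were picked because their genes moved apart, so the divergence tests nothing. The change of Cox4i1 had the opposite sign under either rescaling. A part of feeder RNA in falls such as those of Igfbp7, Inhba, Ptgs2 and Cd44 was not tested.

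Polycomb complexes repress developmental genes, and some of their subunits fell while others rose. Of 33 genes, 9 fell and 3 rose by at least 2-fold. These are 27.3% and 9.09% of the list, not far from the 20.2% and 10.4% of all tested genes. Epop, an elongin-binding partner of PRC2, was listed at 434, 426 and 396 TPM for mESC and 36.2, 37.2 and 37 TPM for T+ and changed by -3.47 ± 0.04. Cbx7, the chromodomain reader of PRC1 in stem cells, was listed at 103, 102 and 94 TPM for mESC and 6.77, 6 and 6.64 TPM for T+. The PRC2 accessory proteins Jarid2 (201 to 33.4 TPM) and Mtf2 (194 to 38.4 TPM) and the PRC1 subunit Phc1 (242 to 42.9 TPM) also fell. Cbx2, another chromodomain reader, rose from 16.8 to 38.6 TPM, Yaf2 from 14.4 to 33.7 TPM and Bmi1 from 7.26 to 16.6 TPM, and Rbbp7, a histone-binding subunit shared with other complexes, from 793 to 1441 TPM. The 5 genes named here as fallen differed by at most 0.21 on the log2 scale between T+ and the other sorted groups. Zfp57, which protects methylation at imprints, fell from 134 to 10.6 TPM and Uhrf2 rose from 20.4 to 70.6 TPM. Of the SWI/SNF subunits, Smarca2, the alternative ATPase, rose from 3.14 to 19.3 TPM and Smarcd3 from 20.6 to 44.3 TPM, and Actl6a fell from 193 to 86.9 TPM. H1f0, a linker histone of cells leaving rapid proliferation, rose from 45.7 to 221 TPM and H2afy2, a macroH2A, from 42.8 to 105 TPM. Hdac11 rose from 1.44 to 16.7 TPM and Sirt1, a deacetylase, fell from 69.6 to 16.5 TPM.

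Genes of germline genome defence were mostly lower in T+. Of 19 tested genes, 17 fell, 14 by at least 2-fold, and 1 rose, with a median of -2.68. Tex19.1, which limits retrotransposons, was listed at 88.7, 87.1 and 87.9 TPM for mESC and 0.792, 1.35 and 1.35 TPM for T+ and changed by -5.37 ± 0.10. Tdrd12 (32.2 to 0.562 TPM), Mael (24.1 to 0.321 TPM), Fkbp6 (22.6 to 0.34 TPM) and Rnf17 (45.4 to 2.18 TPM), all of the piRNA machinery, fell as well, and Mov10, a helicase found in many cells, fell from 85.8 to 28.1 TPM. Imprinted genes, expressed from 1 parental allele, moved in the opposite direction. Of 35 tested, 26 rose and 6 fell. By at least 2-fold, 18 rose and 5 fell (51.4% and 14.3%, against 10.4% and 20.2% of all tested genes). Peg3 was listed at 14.5, 14.4 and 14.9 TPM for mESC and 275, 277 and 254 TPM for T+ and its neighbours Usp29 and Zim1 went from 0.988 to 27.5 TPM and from 0.204 to 12.2 TPM. Peg10 rose from 102 to 633 TPM with its neighbour Sgce (10.3 to 109 TPM), and Gnas rose from 385 to 1302 TPM. Sfmbt2 fell from 21.2 to 2.59 TPM and Snrpn from 142 to 69.6 TPM. No label says whether counting used strand, so overlapping transcripts of these clusters may share reads.

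The LIN28 and let-7 axis pairs RNA-binding proteins with targets of the let-7 microRNAs. Of 12 tested, 9 rose and 3 fell. By at least 2-fold, 7 rose and 1 fell (58.3% and 8.33%, against 10.4% and 20.2% of all tested genes). Hmga2, a let-7 target and chromatin protein, was listed at 61.8, 70.8 and 63.5 TPM for mESC and 342, 324 and 324 TPM for T+ and rose by 2.32 ± 0.05. Igf2bp3 went from 43.7 to 153 TPM, Arid3a from 5.95 to 35.7 TPM, Arid3b from 37.2 to 138 TPM and Lin28b from 9.63 to 28.7 TPM, whereas Trim71 fell from 69.3 to 30.1 TPM. Lin28a went from 259.6 to 227 TPM (-0.20 ± 0.07, adjusted limma p 0.0188), but it was higher in T+ after quantile normalization (0.17) and did not pass after median-of-ratios scaling, without the third T+ library or without the first or the third mESC library. Splicing regulators of muscle and neural type changed in both directions. Rbm24 rose from 0.463 to 13.9 TPM and Ptbp2 from 14.8 to 54.1 TPM. Mbnl1 fell from 17.1 to 2.63 TPM, Elavl2 from 18.5 to 3.96 TPM and Rbm38 from 120.3 to 41.1 TPM.

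Genes of protein synthesis split by role. The cytosolic ribosomal proteins took 15.4 ± 0.0882% of all TPM in mESC and 23 ± 0.225% in T+ (SD, n = 3). Of 91 tested, 84 rose, most by less than 2-fold, and the median was 0.57, or 0.72 after median-of-ratios scaling and 0.21 after quantile normalization, where 61 rose and 21 fell. Rises of at least 2-fold numbered 2, or 10 after median-of-ratios scaling. Rps19 went from 1387 to 2850.4 TPM. The 6 falls were led by duplicate copies: Rpl10l was listed at 191, 188 and 186 TPM for mESC and 0.14, 0.175 and 0.25 TPM for T+, Rpl39l at 103, 98.5 and 99 TPM for mESC and 0.189, 0 and 0 TPM for T+ and Rps4l at 1006, 998 and 987 TPM for mESC and 179, 176 and 194 TPM for T+. Rpl10l and Rpl39l were thus near 0 in every T+ library, and Rpl22l1, also a paralog, rose from 178 to 477 TPM. Reads of such copies can be split with the parent gene, so these levels are uncertain.

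Factors that build and feed ribosomes fell while ribosomal proteins rose. Of 40 ribosome biogenesis genes, 38 fell and 2 rose, with a median of -0.78 (-0.47 after quantile normalization). The RNA helicase Ddx21 went from 276 to 74.5 TPM, Bop1 from 126 to 35.9 TPM, Tcof1, the treacle protein, from 120.5 to 36.3 TPM and Ncl (nucleolin) from 994 to 553 TPM. Falls of at least 2-fold numbered 14, or 7 after quantile normalization. Of 20 aminoacyl-tRNA synthetases, which charge tRNAs, 17 fell and 1 rose, with Aars from 236 to 59.6 TPM and Gars from 451 to 265 TPM. Of 77 mitochondrial ribosomal proteins, 64 fell and 5 rose, with Mrpl20 from 192 to 58.6 TPM and Mrps18b from 186 to 61.3 TPM among the falls and Mrpl23 rising from 61.3 to 144 TPM. The falls of at least 2-fold in these lists, 6 (30%) and 13 (16.9%), against 20.2% of all tested genes, came down to 1 and 6 after quantile normalization. Of 38 proteasome genes, 34 fell and 0 rose by limma (0 at an unadjusted p under 0.05 too). Falls of at least 2-fold numbered 9 (23.7%, against 20.2% of all tested genes), or 2 after either rescaling. Rises numbered 3 after median-of-ratios scaling and 6 after quantile normalization, where 28 fell. Psmc4, an ATPase of the cap, went from 293 to 96.9 TPM, and Psma8, a germ cell subunit, from 18.6 to 0.34 TPM. Chaperones fell in part: Hspb1 from 890.0 to 21.7 TPM, Cryab from 63.3 to 0.769 TPM and Hsp90aa1 from 2545 to 648 TPM, but Hsp90ab1 rose from 3812 to 4593 TPM, or was lower in T+ after quantile normalization. The part of feeder RNA in the falls of Hspb1 and Cryab was not tested.

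**Figure D5:**
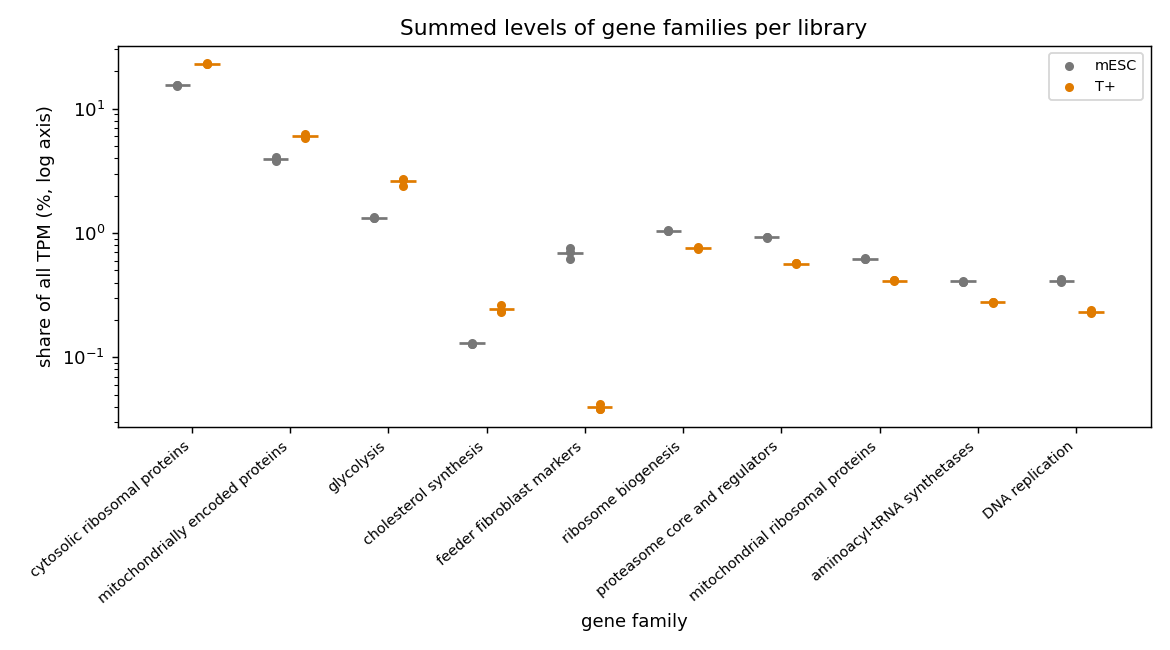
Summed TPM of 10 gene families as percent of all TPM, per library (mESC grey, T+ orange) on a log axis, with a bar at each group mean. Cytosolic ribosomal proteins, glycolysis, mitochondrially encoded and cholesterol synthesis genes lie higher in all T+ libraries, and ribosome biogenesis, proteasome, tRNA synthetase, mitochondrial ribosome, DNA replication and fibroblast marker genes lower.

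Glycolytic genes rose in T+. Of 22 tested, 18 rose, 11 of them by at least 2-fold (50%, against 10.4% of all tested genes), and 3 fell by less. The median was 1.00, and the summed share of the list went from 1.33 ± 0.0167% to 2.6 ± 0.165% of all TPM (SD, n = 3). Pgk1 (phosphoglycerate kinase) was listed at 419.7, 433 and 434 TPM for mESC and 1898, 1941 and 1762 TPM for T+ and rose by 2.12 ± 0.08. Ldha (lactate dehydrogenase) was listed at 1442, 1481 and 1478 TPM for mESC and 4641, 4704 and 4122 TPM for T+ and rose by 1.61 ± 0.06. Aldoc, a brain-type aldolase, went from 4.63 to 69 TPM, Pfkfb3, which makes an activator of glycolysis, from 6.99 to 42.2 TPM and Pfkl from 72.7 to 283 TPM. Known targets of hypoxia-inducible factors rose beside them, 10 of 22 by at least 2-fold, with 2 falls. Ddit4, an inhibitor of mTORC1, went from 65.6 to 466 TPM, Egln3, an oxygen sensor, from 10.1 to 52.3 TPM and Bnip3, a mitophagy receptor, from 54.5 to 222 TPM. Anxa2 and Kdm3a fell, from 417 to 165 TPM and from 86.5 to 37.3 TPM. Of the 22 hypoxia genes, 0 were higher and 3 lower in T+ than in SOX17+/T+ by limma, against 15.8% and 12.6% of all tested genes (at an unadjusted p under 0.05, 1 was higher).

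Promoter windows were searched for ACGTG, the core of the hypoxia response element, because members of these lists rose together. The windows are RefSeq sequences of GRCm38.p6, and the 250 bases before the annotated start were searched on both strands, so that CACGTG counts at both of its overlapping positions. The core was in 16.6% of 32851 windows of all genes and in 21.4% of the windows of tested genes. It was in 12 of 33 windows (9 of 21 genes) for glycolysis and in 12 of 24 windows (11 of 18 genes) for the hypoxia list, against 19.7% of the windows of genes that rose at least 2-fold. The lists share no gene, which does not make them independent. The hypoxia list was chosen as known targets of hypoxia-inducible factors, so its share follows in part from that choice and tests nothing. The glycolysis list was also chosen with earlier results known, so its share is no independent test either. Whether hypoxia-inducible factors act on either list was not tested. Windows of a gene can overlap, and a site of Aldoa was counted more than once. Anxa2, which fell, is among the hypoxia genes with a match. Stretches of 3 such promoters follow, read on the gene's strand from 5′ to 3′ with each match in capitals: 60 bases from 170 before the start of Pgk1 (chrX:106186930-106186989, plus strand), 140 bases from 160 before the start of Ldha (chr7:46845644-46845783, plus strand) and 50 bases from 130 before the start of Bnip3 (chr7:138909587-138909636, minus strand).
Pgk1: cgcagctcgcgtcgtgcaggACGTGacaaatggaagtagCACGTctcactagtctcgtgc
Ldha: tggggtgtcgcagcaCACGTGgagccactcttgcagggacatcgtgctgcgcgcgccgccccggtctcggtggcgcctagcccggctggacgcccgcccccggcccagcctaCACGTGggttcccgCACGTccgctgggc
Bnip3: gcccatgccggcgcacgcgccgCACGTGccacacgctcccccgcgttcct
Such a match is a string of letters and not a measured binding site.

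Genes of sterol and lipid synthesis were mostly higher in T+ than in mESC. Of 25 cholesterol synthesis genes, 22 rose and 1 fell. The rises of at least 2-fold numbered 11, or 17 after quantile normalization, with a median of 0.90. Hmgcs1, which makes the precursor of mevalonate, was listed at 126, 123 and 123 TPM for mESC and 339, 334 and 399 TPM for T+ and rose by 1.51 ± 0.12. Dhcr7, which completes cholesterol, went from 28.2 to 85.6 TPM, the sterol carrier Stard4 from 14.5 to 48.7 TPM and Srebf2, the controlling factor, from 108 to 202 TPM. The desaturases Scd1 (29.7 to 123 TPM), Scd2 (189 to 724 TPM), Fads1 (42.8 to 145 TPM) and Fads2 (43.6 to 162 TPM) rose, whereas Fads3 fell from 14.4 to 1.14 TPM. T+ cells were nonetheless below SOX17+ cells for 20 of the 25 cholesterol genes and above for 1, against 25.4% and 29% of all tested genes. The sterol response element TCACCCCAC was in 0.496% of all windows and in 1 of 20 windows for this list, that of Hmgcs1, shown as 80 bases from 180 before its start (chr13:119690171-119690250, plus strand) with the match in capitals.
Hmgcs1: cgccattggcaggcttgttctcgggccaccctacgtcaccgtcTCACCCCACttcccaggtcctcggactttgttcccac

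Respiratory chain genes were counted apart by genome of origin. The mitochondrially encoded proteins took 3.91 ± 0.144% of all TPM in mESC and 6.02 ± 0.246% in T+ (SD, n = 3), and 12 of 13 rose and 1 fell, or 7 and 2 after quantile normalization. Of 81 nuclear subunits, 21 rose and 43 fell, but the median of -0.12 turned to 0.03 after median-of-ratios scaling and to 0.17 after quantile normalization, so the direction of the list depends on the scaling. Single isoforms stood out from it: Cox4i2 was listed at 1.2, 0.992 and 0.72 TPM for mESC and 68.5, 75.8 and 61.9 TPM for T+ beside Cox4i1, which went from 724 to 679.8 TPM and had the opposite sign under either rescaling, Cox6b2 rose from 34.8 to 128 TPM, and Atp5g1 fell from 403 to 138 TPM. Of 26 genes of serine, glycine and folate metabolism, 12 fell and 2 rose by at least 2-fold: Tdh, the threonine dehydrogenase of mouse stem cells, from 354 to 0.56 TPM, the folate receptor Folr1 from 117 to 0.214 TPM and Shmt1 from 123 to 40.3 TPM, with Aldh1l1 rising from 2.28 to 14 TPM. Of 26 nucleotide synthesis genes, 19 fell and 5 rose. By at least 2-fold, 5 fell and 2 rose (19.2% and 7.69%, near the 20.2% and 10.4% of all tested genes). Prps1 (201 to 55.4 TPM) and Gart (443 to 169 TPM) fell, while Adssl1, a muscle-type adenylosuccinate synthase, rose from 3.15 to 93.4 TPM. Carbonic anhydrases rose in 5 of 8 cases, Car4 from 8.17 to 45.6 TPM and Car13 from 6.67 to 27.2 TPM besides Car14, and Car2 fell from 104 to 41.5 TPM.

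Redox and iron genes included many falls. Of 45 genes of glutathione and peroxide defence, 18 fell and 7 rose by at least 2-fold, against 20.2% and 10.4% of all tested genes. Gpx1 went from 911 to 279.7 TPM, Gsto1 from 385 to 42.1 TPM and the NRF2 targets Nqo1 and Srxn1 from 26.4 to 1.81 TPM and from 35.9 to 4.39 TPM, whereas Gstm5 rose from 11.7 to 89.9 TPM, Gpx3 from 39.4 to 163 TPM and Prdx4 from 91.1 to 250.2 TPM. Of 18 iron genes, 7 fell and 1 rose by at least 2-fold. The STEAP family genes Steap3 (50.6 to 0.442 TPM), Steap1 (34.6 to 1.88 TPM) and Steap2 (25.6 to 4.15 TPM) and the transferrin receptor Tfrc (106 to 24.3 TPM) fell, and the storage subunit Fth1 rose from 1199 to 1707 TPM. Whether feeder RNA had a part in the falls of these redox and iron genes was not tested. Lysosomal genes rose, 27 of 39, with 10 falls, and 10 rises were of at least 2-fold, 25.6% of the list against 10.4% of all tested genes. Arsa went from 9.04 to 56.5 TPM, Neu1 from 5.47 to 35 TPM, Hexa by 1.76 ± 0.06 and Npc2, a cholesterol carrier, from 75.3 to 257 TPM, while Ctsk, a collagen-degrading cathepsin of fibroblasts and osteoclasts, fell from 14.5 to 0.0636 TPM. T+ lay below SOX17+ for 26 of these 39 genes and above for 3, against 25.4% and 29% of all tested genes.

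Cell cycle genes were mostly lower in T+ than in mESC. Of 32 DNA replication genes, 28 fell and 1 rose. Falls of at least 2-fold numbered 10 (31.2%, against 20.2% of all tested genes), or 4 after quantile normalization. Rpa1 went from 264 to 59 TPM, Mcm5 from 346 to 119 TPM and Orc1 from 57.4 to 17.9 TPM. Of 26 mitosis genes, 18 fell and 3 rose, but only 2 falls reached 2-fold, Nek2 from 70.2 to 26.1 TPM and Mad2l1 from 113 to 54.5 TPM, or 1 after either rescaling. Those 2 falls are 7.69% of the list, below the 20.2% of all tested genes. All 26 were higher in T+ than in SOX17+ (29% of all tested genes), and 19 were higher and 0 lower than in SOX17+/T+ (0 also at an unadjusted p under 0.05). Ccne1, the cyclin of the entry into replication that stem cells hold high, was listed at 285, 276 and 276 TPM for mESC and 32.3, 33.8 and 33.8 TPM for T+ and changed by -3.03 ± 0.05. The inhibitors Cdkn1b and Cdkn1c rose, by 1.94 ± 0.05 and by 1.59 ± 0.08, and Cdkn2a and Cdkn2b, which cultured fibroblasts express, fell, from 38.4 to 3.71 TPM and from 21.3 to 0.304 TPM. Trp53 fell from 539 to 186 TPM with Mdm2 (179.9 to 43.3 TPM), Bax (341 to 153 TPM) and Mcl1 (332 to 66.6 TPM).

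Cytoskeletal families mostly fell. Of 25 actins, tropomyosins and myosins, 15 fell and 1 rose by at least 2-fold, or 12 and 1 of 22 without the fibroblast markers Acta2, Tagln and Cnn1. Actb went from 4287 to 1865 TPM, Myl9 from 238 to 3.84 TPM and Actg2, a smooth-muscle actin, from 105 to 0.0758 TPM, and Actc1, the cardiac actin, rose from 2.6 to 14.9 TPM. Among tubulins, Tubb3 was listed at 95.7, 94.2 and 89.9 TPM for mESC and 0.268, 0.558 and 0.208 TPM for T+ and Tubb2b fell from 322 to 23 TPM, whereas the abundant Tubb5 went from 2033 to 2293 TPM, or was lower in T+ after quantile normalization. Intermediate filaments split by type. The keratins of simple epithelia Krt8 (14 to 180.3 TPM), Krt18 (15.1 to 185 TPM) and Krt19 (4.2 to 75.6 TPM) rose, and the neuronal filaments Ina (49.2 to 0.589 TPM) and Nefl (8.32 to 0.816 TPM), the nuclear lamin Lmna (168 to 10.4 TPM) and Vim (1207 to 634 TPM) fell. Feeder RNA may have a part in the falls of Lmna and Vim, which was not tested. Of 17 S100 proteins and annexins, 13 fell by at least 2-fold, S100a11 from 428 to 73 TPM and S100a16 from 14 to 0.339 TPM besides those above, and S100a1 rose from 4.68 to 12.2 TPM. Genes of ciliary transport rose by small amounts, 18 of 22, with 3 falls and a median of 0.60. Ift122 went from 4.09 to 14.5 TPM and Ift20 fell from 36 to 12.1 TPM.

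Genes of the complement and coagulation list mostly fell, and immune genes changed in both directions. Of these 23 genes, 13 fell and 2 rose by at least 2-fold (56.5% and 8.7% of the list). Thbd (thrombomodulin) went from 32.8 to 0.208 TPM, the clotting initiator F3 from 38.4 to 0.713 TPM and Plau (urokinase) from 22.1 to 0.449 TPM. Prss23, a serine protease counted in this list, went from 173 to 0.806 TPM. Interferon-induced transmembrane genes moved apart. Ifitm1 was listed at 151, 153 and 151 TPM for mESC and 354, 325 and 339 TPM for T+ and Ifitm3 at 259.7, 293 and 285 TPM for mESC and 28.2, 27.4 and 24.9 TPM for T+, while Ifitm2 went from 747 to 670.0 TPM, a fall that did not pass after either rescaling and turned sign under quantile normalization. Of 24 genes of interferon response and antigen presentation, 7 rose and 13 fell, near the 34.5% and 49.5% of all tested genes. By at least 2-fold, 3 rose and 8 fell (12.5% and 33.3%, against 10.4% and 20.2% of all tested genes). The class I gene H2-K1 rose from 21.1 to 54.3 TPM and Tap1, its peptide transporter, from 5.25 to 15.7 TPM, whereas H2-D1 fell from 57.6 to 17.6 TPM. The median of this list, -0.25, turned to 0.05 after quantile normalization. The fibroblast marker sum fell in the same libraries as the complement and coagulation, S100, actin, lamin and vimentin genes, and its part in those falls was not tested.

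Among the genes named above as risen or fallen in T+ against mESC, the largest adjusted limma p was 0.019, and standard errors lay between 0.019 and 0.34 on the log2 scale. The 3 libraries of T+ lay all above or all below those of mESC for each of them, as for 35.6% (above) and 50.5% (below) of the tested genes. The T-box half-site TCACACCT was in 0 of the 8 windows that RefSeq held for the 12 largest rises, in 0.835% of the windows of genes that rose at least 2-fold and in 1.12% of all windows, and nothing about T binding follows from these letters.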

How the data were processed

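RNA was measured in 12 bulk libraries, 3 per group, from 500 ng of total RNA each, read as 100 bp pairs per the labels' protocols. Values are TPM as deposited by the authors in 1 table, with a sum of 1000000 in each library. Cutadapt, STAR, StringTie and the build mm10/GRCm38 are named in the submitters' processing notes, without versions. The labels state no read depth, so it is unknown and no counting interval can be had. Of 54480 rows, 11 genes split over several rows were summed and 282 empty cells were set to 0.

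Genes that reached 1 TPM in 3 or more of all 12 libraries were tested on log2(TPM + 1) with limma 3.58.1 (R 4.3.3, trend and robust moderation, 8 residual degrees of freedom) and Benjamini-Hochberg adjustment, a script checked on simulated data. Coordinates are those of the deposited table's gene models.

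Gene lists, members and tests were chosen with earlier results of these data known. The genes named were the 12 largest changes in each direction with at least 10 TPM in the higher group and, per list, up to 5 rises and 5 falls of at least 2-fold reaching 5 TPM plus the 3 most abundant members. For lists of fibroblast and other markers they were the 6 highest in each group. Fap and Lum were named after their values were seen, and a few genes that the rule names are not reported here.

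Between T+ and SOX17+/T+, same-numbered libraries deviated together from their group means (r of 0.204, 0.149 and 0.242 across genes), so these numbers pair the samples by the data, and the labels give no source for the pairing. The block left the count of calls within 1.5 times (5202 against 4578). The family counts against SOX17+/T+ given above come from the fit without the block and were not recounted with it. Alternatives were a pseudocount of 0.1, no filter, quantile and median-of-ratios scaling, mitochondrial transcripts left out, other fits, the replicate block, each library left out and, added after seeing the data, lists without their fibroblast markers.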

Additional observations from a re-analysis of the deposited data

How the results depend on the processing

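The counts of genes called kept within 1.5 times of the reported ones under every alternative run. Leaving out 1 library at a time, with the genes tested kept the same, gave 13150 to 13263 genes called in T+ against mESC (13520 with all), 5375 to 5461 higher, 7729 to 7888 lower and 4853 to 4949 at 2-fold or more. It gave 3653 to 4545 against SOX17+/T+ and 8030 to 8289 against SOX17+. With the replicate number as a block the counts were 13668, 5630 higher, 8038 lower, 4916, 5202 and 9199, and the block changed no call of a named gene. T+ and mESC libraries share only a number (r of 0.033, 0.073 and 0.075 across genes), although each T+ library correlated best with its own number. Of 346 named genes, 344 of them called in T+ against mESC, 338 kept their call and direction throughout. Quantile normalization reversed Hes1 (0.27), Tubb5 (-0.22), Hsp90ab1 (-0.21), Lin28a (0.17), Ifitm2 (0.0092) and Cox4i1 (0.083). Median-of-ratios scaling reversed Hes1 (0.078) and Cox4i1 (0.059), and Hes1 (-0.07 with all libraries) went from -0.16 to 0.028 over the libraries left out, the latter without the second T+ library. Cox4i1 did not pass with mitochondrially encoded transcripts left out. Of 182 family counts at 2-fold, 39 moved by over 1.5 times under quantile normalization, 18 under median-of-ratios scaling, 18 with a pseudocount of 0.1, 2 without mitochondrial transcripts and 0 under the block, the other filter or the other fits. The causes of these changes were not tested. Leaving out single libraries moved 0 to 3 of these counts, in the core histone, claudin, protocadherin, visceral endoderm and mitochondrially encoded lists, whose 2-fold counts are not given here.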

Other observations

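Transporters and channels of the cell surface, which the comparisons above leave out, changed gene by gene. Of 27 tested amino acid transporters, 9 rose and 15 fell, near the 34.5% and 49.5% of all tested genes. The cationic and neutral carriers Slc7a3 (113 to 15.9 TPM), Slc7a7 (106 to 25.3 TPM), Slc7a1 (51.4 to 13.1 TPM) and the glutamine carrier Slc1a5 (54 to 19.7 TPM) fell, and Slc38a4 rose from 113 to 249 TPM. Of 24 genes of zinc transport and metallothioneins, 7 rose and 11 fell, with a median that turned sign under both quantile normalization and median-of-ratios scaling. Mt2, a metal-buffering metallothionein, was listed at 412, 399 and 407 TPM for mESC and 58.8, 62.9 and 70.5 TPM for T+, so that the groups did not overlap. The importer Slc39a8 went the other way, from 1.32 to 21.1 TPM, and Slc39a14 fell from 34.3 to 7.06 TPM. Of 31 potassium channel genes, 11 rose and 15 fell, with a median that also turned sign. These counts do not set the list apart from all tested genes, whose shares are 34.5% and 49.5%. Kcnk5, a leak channel, fell from 30.7 to 5.33 TPM, and Kcnmb4, a regulatory subunit, rose from 0.664 to 9.28 TPM. Of 11 calcium channel subunits, 4 rose and 7 fell, among them Cacng7 (59.1 to 4.39 TPM). The water and glycerol channel Aqp3 fell from 31.2 to 1.08 TPM.

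Secreted signals outside the families above also moved. Of 18 genes of the VEGF, PDGF and angiopoietin axis, 6 rose and 11 fell, against 34.5% and 49.5% of all tested genes. Vegfb was listed at 32.9, 32.9 and 28.8 TPM for mESC and 138, 139 and 129 TPM for T+, and Pgf, a related ligand, rose from 1.28 to 16.2 TPM, whereas Vegfc fell from 16 to 3.44 TPM and Pdgfc from 32.6 to 3 TPM. Cxcr4, a chemokine receptor of migrating mesoderm, was listed at 1.82, 2.77 and 3.66 TPM for mESC and 64.5, 61.2 and 69.5 TPM for T+, while its ligand Cxcl12 fell from 23.4 to 2.59 TPM. Of 20 genes of lysophospholipid signalling, 7 rose and 10 fell, near the shares over all tested genes, with a median that turned sign under quantile normalization. The sphingosine kinase Sphk1 fell from 5.95 to 0.0287 TPM, the receptor S1pr3 from 12.1 to 1.69 TPM and the phosphatase Plpp1 from 32.7 to 5.78 TPM. Fibroblasts are known to express several of the fallen genes, and the part of feeder RNA in them was not tested.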
